A study of Mus musculus with 18 samples.

Results

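Genes known for the stem and multipotent progenitor program of blood formation, *Meis1*, *Mecom*, *Hlf*, *Hoxa9*, *Hoxa7*, *Hoxa10*, *Cd34*, *Procr*, *Myb* and *Erg*, were followed through 18 RNA-seq libraries of mouse bone marrow progenitors. The rule that picks the 10 members uses gene symbols and no measured value. The symbols were chosen with earlier results of these data known, so shares of all genes beside member counts are descriptions. Each was listed in the tables of all 3 sorted populations, which hold 19710 genes for multipotent progenitors (MPPs) and for common dendritic cell progenitors lacking CD115 (CD115- CDPs), and 18378 genes for common lymphoid progenitors (CLPs). Each population had 3 wild-type (WT) and 3 *Trim33*-/- libraries, the latter called KO-labelled here.

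All mice were on a C57BL/6 background, 6 to 8 weeks old, and carried floxed *Trim33* alleles. WT mice were *Trim33* fl/fl, and KO mice were *Trim33* fl/fl Cre-ERT2, in which tamoxifen switches on the Cre recombinase throughout the body, so that cells other than the sorted ones lose the gene too. By the legends of the study both genotypes received tamoxifen, and cells were taken after a further week of rest. Cre removes exons 2 to 4 of *Trim33*, which codes for a chromatin-associated E3 ubiquitin ligase of the TRIM family. All sorts took lineage-negative, FLT3+ cells. MPPs were also positive for Sca-1, CD117 and CD34, and CLPs for Sca-1, CD117 and CD127 with no CD11c. CD115- CDPs had intermediate CD117 and lacked CD11c, CD127 and CD115. CD34 protein was therefore part of the MPP gate, while the other members were not used in sorting. The labels call the 3 repeats of each group biological, and do not say how many mice each library holds.

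Blood formation starts from rare stem cells that renew themselves and give rise to multipotent progenitors, which lose self-renewal and then commit to lymphoid, myeloid, dendritic or erythroid fates. A set of transcription factors holds the early state. HOXA proteins bind DNA together with TALE partners such as MEIS1, MECOM and HLF are tied to stem cell maintenance, and ERG and MYB act in stem cells and in many of their descendants. CD34 and the protein C receptor, encoded by *Procr*, are surface proteins long used to sort primitive blood cells. Expression of most of these genes declines as cells commit, and several are turned on in leukemia.

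The promoter windows of the 4 members that passed the test in at least 1 population are shown first, *Meis1* and *Hlf* as lower in MPPs and *Erg* and *Cd34* as higher in CLPs. Each window is the 250 bases upstream of a RefSeq start (GRCm38.p6, the build of mm10), written 5′ to 3′ on the strand of the gene, and capitals mark matches to the motifs named after the windows.
Meis1, chr11:19018970-19019219, minus strand: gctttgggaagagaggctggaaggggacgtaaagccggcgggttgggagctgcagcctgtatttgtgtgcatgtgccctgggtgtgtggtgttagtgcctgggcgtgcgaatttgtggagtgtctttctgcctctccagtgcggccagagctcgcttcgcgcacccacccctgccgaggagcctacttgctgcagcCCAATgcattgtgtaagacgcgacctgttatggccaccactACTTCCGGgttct
Hlf, chr11:90390918-90391167, minus strand: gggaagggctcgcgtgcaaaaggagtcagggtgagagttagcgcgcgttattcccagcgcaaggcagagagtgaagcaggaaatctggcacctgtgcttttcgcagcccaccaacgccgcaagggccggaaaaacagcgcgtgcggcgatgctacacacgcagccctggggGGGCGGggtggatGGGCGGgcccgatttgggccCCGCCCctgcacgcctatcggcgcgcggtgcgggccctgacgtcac
Cd34, chr1:194938571-194938820, plus strand: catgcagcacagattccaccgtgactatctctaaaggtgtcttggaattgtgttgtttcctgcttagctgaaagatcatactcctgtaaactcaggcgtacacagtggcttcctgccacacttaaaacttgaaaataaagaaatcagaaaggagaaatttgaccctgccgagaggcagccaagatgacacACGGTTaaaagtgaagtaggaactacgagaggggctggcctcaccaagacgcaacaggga
Erg, chr16:95459349-95459598, minus strand, the start of 3 in RefSeq whose window holds a GATA match: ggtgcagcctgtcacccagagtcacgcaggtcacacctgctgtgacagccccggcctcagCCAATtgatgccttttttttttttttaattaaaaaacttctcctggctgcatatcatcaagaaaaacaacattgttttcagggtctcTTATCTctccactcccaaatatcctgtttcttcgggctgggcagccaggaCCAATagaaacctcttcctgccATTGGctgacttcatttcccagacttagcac

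The motifs were searched on both strands in all 32851 windows of this length, and 14 windows belonged to the 10 members. The ETS consensus CCGGAAGT, a site for ETS proteins such as ERG, was found 13 bases before the *Meis1* start. This was 1 of 14 member windows, against 2.88% of all windows. A GATA motif, AGATAA, lay 103 bases before the *Erg* start shown above, which was picked for this match. It was in 1 of 14 member windows, against 9.99% of all windows. A MYB motif, AACNGT, was present 60 bases before the start of *Cd34* and 227 bases before a start of *Hoxa10*. These were 2 of 14 member windows, against 22.3% of all windows. The *Hlf* window held 3 matches to the GC box GGGCGG, a motif of 6 of 14 member windows and 32.74% of all windows. The *Erg* window held 3 matches to CCAAT, which occurs in 5 of 14 member windows and 33.85% of all windows. The PU.1 core GAGGAAGT (2.44% of all windows) and the HOX-PBX motif TGATTNAT (2.82%) were not found in any member window. The ETS consensus and the PU.1 core share the letters GGAAGT, so 1 stretch can resemble both. Median GC content was 51.2% over the member windows and 52.4% over all windows. These letters describe the windows and do not show binding.

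The values are FPKM, which correct the fragments of each gene for transcript length and for the size of the library, so levels of different genes can be set side by side. An estimate from the spacing of low values put depth at 19.2 to 21.2 M mapped reads per library, which could be off by a whole factor. *Trim33* itself did not separate the genotypes in MPPs, where WT libraries 1 to 3 had 10.42, 10.12 and 8.78 FPKM and KO-labelled libraries 1 to 3 had 9.71, 11.66 and 4.80 FPKM. In CD115- CDPs *Trim33* was at 14.30, 15.23 and 8.27 FPKM in WT and 9.64, 8.28 and 4.03 in KO-labelled libraries (limma, adjusted p = 0.528, and 0.0258 with the replicate number as a block). In CLPs the values were 12.36, 7.01 and 8.86 against 7.52, 5.60 and 7.66 FPKM, with adjusted p = 0.255. The gene-level value also counts the exons that Cre leaves in place, so it is a weak check of the labels. Gate genes followed the sorts in part. *Il7r*, encoding CD127, was at 32.56 to 63.03 FPKM in WT CLPs and 5.27 to 5.87 in WT MPPs. By contrast, *Csf1r*, encoding CD115, was still at 39.11 to 136.77 FPKM in WT CD115- CDPs. *Itgax* encodes CD11c, which the sorts of CLPs and CD115- CDPs excluded. It was still at 54.8 to 69.66 FPKM in WT CLPs, against 5.36 to 7.47 in KO-labelled CLPs. In CD115- CDPs *Itgax* was at 15.72 to 23.29 FPKM in WT and 4.27 to 5.37 in KO-labelled libraries.

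Some libraries stood apart from the rest of their population. The MPP library labelled KO 3 had the lowest *Trim33* of its population but sat at WT level for several members, so MPP results are given with and without it. Among CD115- CDPs the 8 neutrophil markers summed to 4179.89 FPKM in WT 3 and 3939.53 in the library labelled KO 3, against 627.83 to 987.94 in the other 4 libraries.

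In WT cells, 3 members were far lower in the more committed populations than in MPPs and 2 were close to their MPP level. The tables of the 3 populations were made separately, so these ratios of mean FPKM are descriptions with no test. *Hlf*, a PAR-type leucine zipper factor, was 13.1 times higher in WT MPPs than in WT CD115- CDPs and 22.8 times higher than in WT CLPs. *Procr* was 11.5 and 59.5 times higher, and *Mecom*, encoding the zinc finger factor EVI1, was 11.3 and 13.7 times higher. *Hoxa10* (5.63 and 4.33), *Meis1* (3.80 and 2.80), *Erg* (3.62 and 1.98), *Hoxa9* (3.26 and 2.13) and *Cd34* (2.50 and 3.14) formed a middle group. *Hoxa7* was 1.34 and 0.996 times its level in CD115- CDPs and CLPs, and *Myb* 1.24 and 0.776 times, so *Myb* was highest in CLPs. Within WT MPPs the order by mean FPKM was *Cd34*, *Myb*, *Erg*, *Hoxa9*, *Hlf*, *Meis1*, *Procr*, *Hoxa7*, *Hoxa10* and *Mecom*. The WT ranges of *Hoxa9* and *Hlf* overlapped, as did those of *Hoxa10* with *Mecom*.

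**Figure D1:**
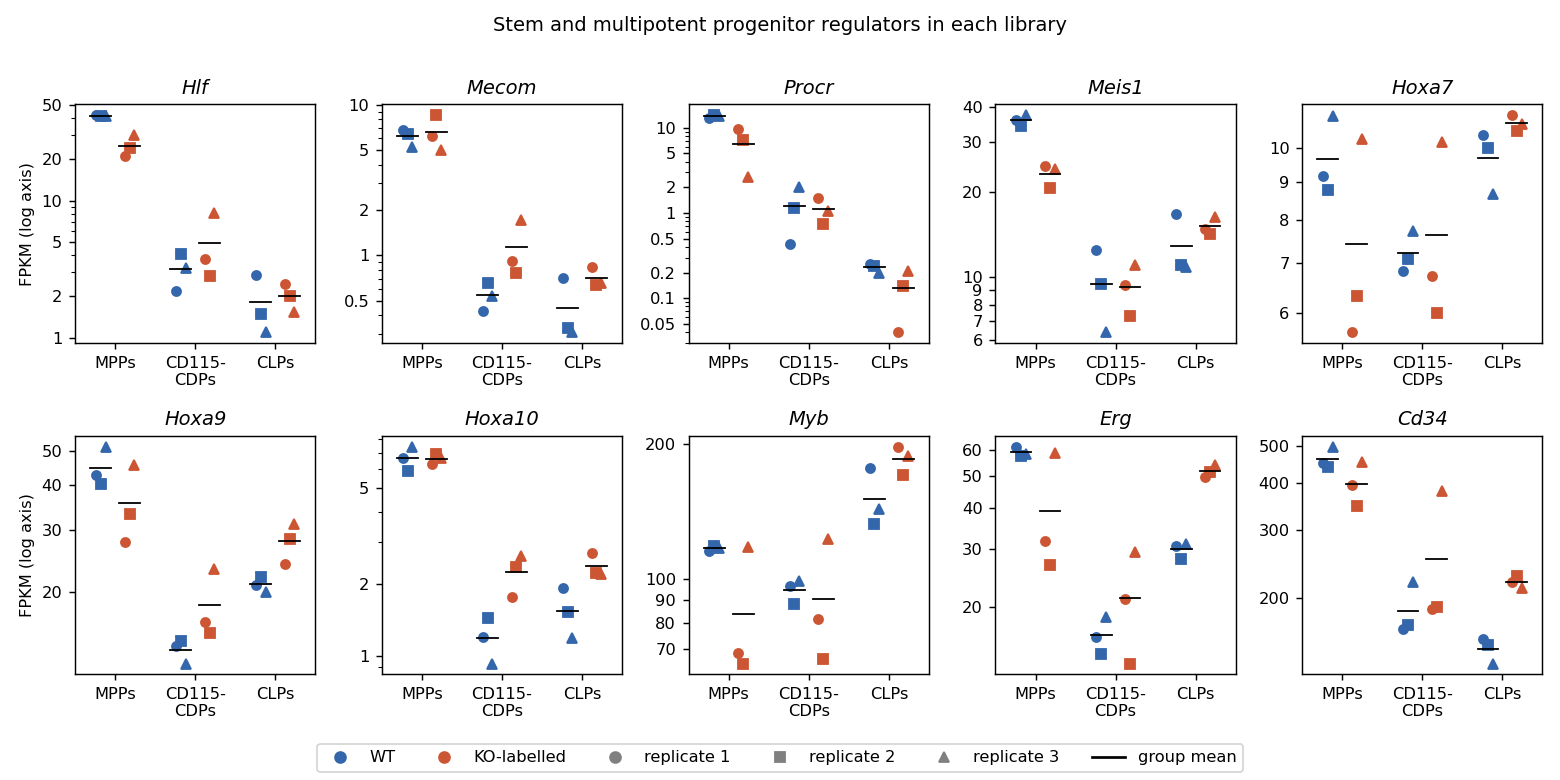
FPKM of each of the 10 members (log axis) in MPPs, CD115- CDPs and CLPs, with 1 point per library, colored by genotype label, shaped by replicate number, and a line at each group mean. *Hlf*, *Mecom* and *Procr* are at least 11.3 times higher in WT MPPs than in either other WT population, and *Erg* and *Cd34* lie higher in all 3 KO-labelled CLP libraries than in any WT CLP library.

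In MPPs, *Meis1* and *Hlf* were lower in the KO-labelled libraries, and no member rose. *Meis1*, the TALE cofactor of HOX proteins, was at 36.10, 34.38 and 37.39 FPKM in WT and at 24.72, 20.74 and 24.13 FPKM in KO-labelled libraries 1 to 3. The groups did not overlap, and mean FPKM in KO-labelled libraries was 0.645 times that of WT. On the log2(FPKM + 1) scale used for all tests *Meis1* fell by 0.61 (SE 0.10, n = 3 against 3, limma adjusted p = 0.0306). *Hlf* was at 41.91, 41.16 and 41.14 FPKM in WT and at 21.13, 24.04 and 30.10 in KO-labelled libraries. All 3 KO-labelled values of *Hlf* were below the tightly grouped WT values, and the log2 fold change was -0.72 (SE 0.14, adjusted p = 0.0432). Neither passed the 2-fold limit. With no fold limit, 2 of 10 members were lower (adjusted p of 0.05 or less), against 3.52% of the 12372 genes tested, and with the limit none was called, against 1.48% in either direction. At an unadjusted p under 0.05 limma gave 5 of 10 members, against 24.2% of all tested genes. Leaving out any 1 MPP library other than KO 3 left none of the 10 members at an adjusted p of at most 0.05, and the adjusted p of *Hlf* was 0.0588 with the replicate block.

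*Procr* had the largest change of the members in size without passing the test. Its values were 13.14, 14.01 and 13.91 FPKM in WT and 9.69, 7.25 and 2.62 in KO-labelled MPPs. Every KO-labelled library was below every WT library, yet the KO-labelled values spread widely, and the log2 fold change of -1.10 (SE 0.38) had adjusted p = 0.152. In all, 3 of 10 members had non-overlapping lower values, *Meis1*, *Hlf* and *Procr*, against 23.3% of tested genes.

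Another 5 members split the KO-labelled MPP libraries. *Erg*, an ETS factor needed for stem cell maintenance, was at 61.35, 57.43 and 58.44 FPKM in WT and at 31.78, 26.76 and 58.92 in KO-labelled libraries. *Myb*, a factor of progenitor proliferation, showed the same arrangement, with 115.92, 118.37 and 117.46 FPKM in WT and 68.61, 64.95 and 117.81 in KO-labelled libraries. Libraries KO 1 and KO 2 were far below the WT values of both genes, whereas KO 3 was within the WT range. *Hoxa9* was at 42.77, 40.32 and 51.44 FPKM in WT and 27.72, 33.32 and 45.84 in KO-labelled libraries. *Hoxa7* was at 9.16, 8.77 and 11.03 against 5.65, 6.32 and 10.28 FPKM. For these HOXA factors too only KO 3 reached the WT range. *Cd34* was at 450.54, 440.86 and 496.53 FPKM in WT and 393.37, 346.61 and 453.32 in KO-labelled MPPs, again with KO 3 inside the WT range.

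None of these 5 passed the test over all 6 libraries, with log2 fold changes of -0.66 for *Erg* (SE 0.27, adjusted p = 0.200), -0.53 for *Myb* (SE 0.22, adjusted p = 0.202), -0.37 for *Hoxa7*, -0.35 for *Hoxa9* and -0.22 for *Cd34*. Without library KO 3, 8 of 10 members passed as lower, but so did 38.6% of all tested genes. In that fit *Erg* had a log2 fold change of -0.99 (SE 0.09, adjusted p = 0.00112), *Myb* of -0.80, *Hoxa7* of -0.60, *Hoxa9* of -0.54, *Cd34* of -0.32, *Procr* of -0.64, *Hlf* of -0.85 and *Meis1* of -0.64. *Mecom*, at 6.81, 6.39 and 5.26 FPKM in WT and 6.18, 8.50 and 4.97 in KO-labelled MPPs, did not pass in either fit. *Hoxa10* was at 6.72, 5.92 and 7.46 against 6.31, 6.95 and 6.67 FPKM, and its difference of -0.01 (95% interval -0.31 to 0.30) had no stable sign across scalings. The median log2 fold change of the 10 members was -0.45, against -0.11 over all tested genes.

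**Figure D2:**
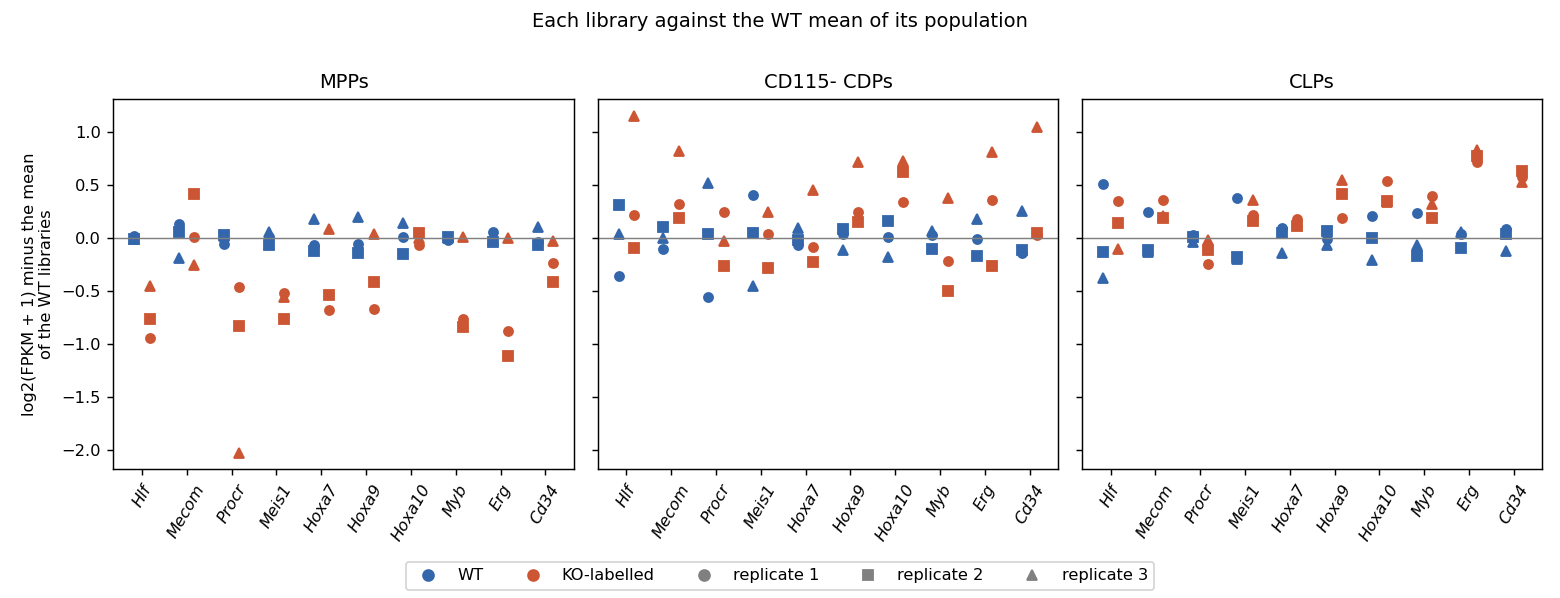
Difference of each library from the WT mean of its population on the log2(FPKM + 1) scale for the 10 members, 1 point per library, colored by genotype label and shaped by replicate number. In MPPs the triangle of KO 3 lies at the WT level for *Erg*, *Myb*, *Hoxa7*, *Hoxa9* and *Cd34* and far below it for *Procr* (2.62 FPKM), and in CD115- CDPs the KO 3 triangle is the highest for *Hlf*, *Mecom*, *Erg* and *Cd34*.

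Markers of other cells also moved with the KO label in MPPs. Of 9 erythroid markers, 8 were lower, and their summed level was 378.18 to 403.05 FPKM in WT and 32.96 to 59.98 in KO-labelled libraries. Of 8 neutrophil markers 3 were lower, with sums of 3368.81 to 3500.90 against 1489.95 to 2471.69 FPKM. A list of 6 CLP genes held *Il7r*, *Flt3*, *Kit* and *Ly6a*, and also *Rag1* and *Dntt*, which were not used in sorting. It summed to 1452.34 FPKM in KO 3, above the WT range of 860.43 to 975.66, and to 848.04 and 739.64 in KO 1 and KO 2. *Dntt* alone was at 453.28 to 548.77 FPKM in WT and 444 to 1053.16 in KO-labelled MPPs. The 4 MPP gate genes, *Kit*, *Ly6a*, *Flt3* and the member *Cd34*, summed to 840.96 to 916.28 FPKM in WT and 639.95 to 840.89 in KO-labelled libraries, with 2 lower. *Cd34* alone was at 440.86 to 496.53 against 346.61 to 453.32 FPKM, so this sum in part repeats a member. Endothelial markers, of which 2 of 4 were tested and neither passed, summed to 51.45 to 51.65 against 30.86 to 42.36 FPKM. T cell markers summed to 4.76 to 5.48 against 1.21 to 2.2 FPKM, and the only 1 of the 5 that was tested was lower. Sums of the 7 megakaryocyte and platelet markers were 23.17 to 25.04 against 10.67 to 15.75 FPKM, with 1 of 4 tested lower. Those of the 6 B cell markers were 41.73 to 48.16 against 15.08 to 29.57 FPKM, with none passing. No marker in these lists was at 0 in every library. Their part in the results of the members was not tested. In sorted bulk samples, fewer cells of a type and less RNA per cell cannot be told apart.

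In CLPs, *Erg* and *Cd34* were higher in the KO-labelled libraries, and no member fell. *Erg* was at 30.64, 27.96 and 31.09 FPKM in WT and 49.59, 51.53 and 53.81 in KO-labelled CLPs. The groups were well apart, with a KO to WT ratio of 1.73, and *Erg* had the smallest adjusted p of any member in the 3 populations (log2 fold change 0.77, SE 0.09, adjusted p = 0.00101). *Cd34* was at 156.08, 150.70 and 134.62 FPKM in WT and 219.70, 227.54 and 212.35 in KO-labelled libraries, a ratio of 1.49 (log2 fold change 0.58, SE 0.10, adjusted p = 0.00611). CD34 was not part of the CLP gate. These 2 of 9 tested members were higher, against 5.41% of the 12339 genes tested. Both stayed at an adjusted p of at most 0.05 when any 1 CLP library was left out. None of the 9 was called at a fold of at least 2, which 3.52% of tested genes were, and limma gave 5 at an unadjusted p under 0.05, against 29.6%.

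The HOXA members had smaller differences of the same sign. *Hoxa9* was at 20.93, 22.07 and 20.08 FPKM in WT and 24.04, 28.33 and 31.21 in KO-labelled CLPs. Its log2 fold change of 0.38 (SE 0.12) had adjusted p = 0.0630 without and 0.0452 with the replicate block, where 3 members were higher against 8.44% of tested genes. *Hoxa10* was at 1.92, 1.53 and 1.19 FPKM in WT and 2.68, 2.21 and 2.2 in KO-labelled libraries (log2 fold change 0.41, SE 0.15, adjusted p = 0.101). *Hoxa7* was at 10.40, 10 and 8.67 against 11.06, 10.54 and 10.75 FPKM, with a difference of 0.14 (95% interval -0.11 to 0.39). The KO-labelled values lay above all WT values for 5 members, *Hoxa9*, *Hoxa7*, *Hoxa10*, *Cd34* and *Erg*, against 15.3% of tested genes.

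*Myb* was at 176.90, 132.90 and 143.27 FPKM in WT CLPs and 197.36, 170.67 and 187.95 in KO-labelled ones, and *Meis1* at 16.69, 11.04 and 10.87 against 14.81, 14.26 and 16.41. In both genes WT 1 was the highest WT library and overlapped the KO-labelled range. Without WT 1, *Meis1*, *Hoxa10* and *Myb* joined *Erg* and *Cd34*, so that 5 of 9 members were higher, in a fit where 9.6% of all tested genes were. *Mecom* stayed below 1 FPKM in every CLP library, at 0.71, 0.33 and 0.31 in WT and 0.84, 0.64 and 0.66 in KO-labelled libraries. *Hlf* was at 2.86, 1.49 and 1.10 against 2.47, 2.01 and 1.54 FPKM. *Procr* was under the 0.5 FPKM minimum and was not tested, with 0.20 to 0.25 FPKM in WT and 0.04 to 0.21 in KO-labelled CLPs. The median log2 fold change of the 9 tested members was 0.30, against 0.01 over all tested genes.

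The list of 6 CLP genes also differed, with summed FPKM of 1398.62 to 1509.57 in WT and 2319.89 to 2746.66 in KO-labelled CLPs and 3 of 6 higher. *Dntt*, not used in sorting, was alone at 988.79 to 1134.95 FPKM in WT and 1891.31 to 2276.7 in KO-labelled CLPs. The gate gene *Il7r* overlapped, at 32.56 to 63.03 against 37.59 to 43.05 FPKM. *Itgax*, encoding the CD11c that the CLP sort excluded, was at 54.8 to 69.66 against 5.36 to 7.47 FPKM. *Csf1r* was at 14.47 to 26.28 against 5.05 to 7.37 FPKM. Endothelial markers had sums of 93.41 to 99.86 FPKM in WT and 48.25 to 56.46 in KO-labelled CLPs, with 2 of 3 tested lower. Erythroid markers summed to 35.50 to 57.19 and 5.90 to 10.03 FPKM, with 4 of 6 tested lower. T cell markers summed to 8 to 11.56 against 1.76 to 2.3 FPKM, with 2 of 2 tested lower. Megakaryocyte and platelet markers summed to 10.94 to 13.76 against 4.35 to 4.88 FPKM, with 1 of 4 tested lower. The MPP gate genes, *Cd34* among them, summed to 459.08 to 505.4 against 562.32 to 604.35 FPKM, with 2 of 4 higher. No neutrophil marker passed, and 1 of 6 B cell markers was higher. The part of these markers, *Itgax* and *Csf1r* included, in the results for *Erg* and *Cd34* was not tested.

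In CD115- CDPs no member passed the test. For 3 members, all KO-labelled values lay above all WT values, against 7.68% of tested genes. *Hoxa10* was at 1.2, 1.44 and 0.93 FPKM in WT and 1.76, 2.35 and 2.61 in KO-labelled libraries (log2 fold change 0.56, SE 0.19, adjusted p = 0.408). *Hoxa9* was at 14.09, 14.60 and 12.58 against 16.49, 15.34 and 23.26 FPKM, and *Mecom* at 0.43, 0.66 and 0.54 against 0.92, 0.76 and 1.71. In each of these genes library KO 3 was the highest of the 6. The same library was highest for *Hlf* (2.2, 4.08 and 3.20 against 3.74, 2.84 and 8.07 FPKM), *Cd34* (165.98, 169.84 and 219.60 against 187.37, 189.78 and 380.46) and *Erg* (16.15, 14.31 and 18.54 against 21.06, 13.40 and 29.28). *Myb* (96.67, 88.07 and 99.13 against 81.43, 66.52 and 122.80 FPKM) and *Hoxa7* (6.82, 7.08 and 7.73 against 6.72, 5.99 and 10.19) also peaked there, with KO 1 and KO 2 below the WT values. *Meis1* was at 12.49, 9.50 and 6.41 against 9.42, 7.33 and 11.08 FPKM, a difference of 0.00 with a 95% interval of -0.65 to 0.65. *Procr* was at 0.43, 1.15 and 2.0 against 1.49, 0.75 and 1.06 FPKM.

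With 0.106% of 12229 genes called at adjusted p of at most 0.05 and a fold of at least 2, this comparison called few genes of any kind, and limma gave 1 member at an unadjusted p under 0.05, against 10.5% of genes. The replicate block brought no member to an adjusted p of at most 0.05. Intervals for the members in the main fit, which has no block, were wide, as for *Erg* (0.30, 95% interval -0.39 to 0.99) and *Cd34* (0.37, 95% interval -0.34 to 1.09). With the block the SE went from 0.29 to 0.15 for *Erg* and from 0.30 to 0.14 for *Cd34* (limma, adjusted p = 0.233 and 0.135). The median over the members was 0.34, against -0.07 over all tested genes.

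**Figure D3:**
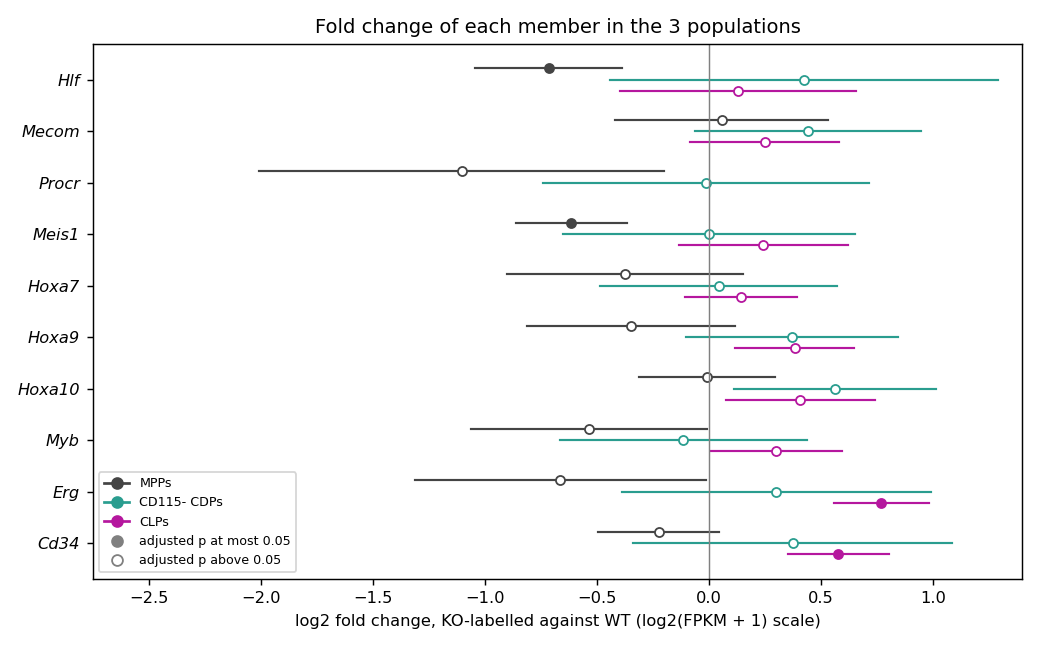
Log2 fold change of KO-labelled against WT libraries for each member in MPPs, CD115- CDPs and CLPs, with 95% intervals from limma and filled points at an adjusted p of at most 0.05. *Meis1* and *Hlf* are filled on the negative side in MPPs (-0.61 and -0.72), *Erg* and *Cd34* on the positive side in CLPs (0.77 and 0.58), and *Procr* has no point in CLPs because it was not tested there.

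Whether the genotype difference changed between populations was tested with a joint F test of the interaction over the 3 populations and all 18 libraries. No member passed, against 3.07% of 12978 genes, while 7 of 10 had an unadjusted p under 0.05, against 16.3%. *Erg* came nearest, with a log2 fold change 1.43 higher in CLPs than in MPPs (SE 0.36) and adjusted p = 0.0889. *Meis1* (0.86, SE 0.29), *Hlf* (0.85, SE 0.41), *Myb* (0.83, SE 0.31), *Cd34* (0.80, SE 0.29) and *Hoxa9* (0.73, SE 0.25) also had higher fold changes in CLPs than in MPPs, with adjusted p between 0.182 and 0.305. Each p here is joint for the 3 populations, and no pair of populations was tested alone. Whether the lower *Meis1* and *Hlf* of MPPs differ from their fold changes in CLPs was therefore not tested. With the replicate block *Erg* and *Cd34* passed, against 8.82% of genes. Without the MPP library KO 3, *Erg* (adjusted p = 0.00685), *Hoxa9* (0.0356) and *Myb* (0.0451) passed, against 5.89% of genes.

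Related genes were read from 6 lists, chosen like the members with earlier results of these data known. The list of 24 other stem and multipotent progenitor genes is taken first. In MPPs 7 of its 21 tested genes were lower and none was higher, against 3.52% of all tested genes lower. With the replicate block 5 were lower, and the share of all genes was not computed for that fit. The median log2 fold change was -0.48, against -0.11 over all tested genes. *Fgd5*, a marker of stem cells, went from 2.43, 2.54 and 1.76 FPKM in WT to 0.59, 0.35 and 0.45 in KO-labelled MPPs (log2 fold change -1.14, SE 0.14, adjusted p = 0.0131). *Esam*, an adhesion protein of stem cells and endothelium, went from 3.07, 2.98 and 3.20 to 0.77 and 0.73 FPKM in KO 2 and KO 3 and 1.34 in KO 1 (-1.08, SE 0.15, adjusted p = 0.0182). Unlike *Erg* and *Myb*, both genes were below the WT range in KO 3 as well. Without KO 3, 15 of the 21 were lower, in a fit where 38.6% of all tested genes were.

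In CLPs 7 of 17 tested genes of this list were higher and none was lower, against 5.41% of all tested genes higher, and 9 were higher with the replicate block, against 8.44%. The median was 0.46, against 0.01 over all tested genes. *Hmga2*, a chromatin protein of fetal stem cells, rose from 4.28, 2.73 and 2.69 FPKM to 14.09, 12.66 and 15.79 (log2 fold change 1.86, SE 0.17, adjusted p = 0.00019). *Angpt1*, the ligand of the TIE2 receptor, rose from 6.46, 5.18 and 5.28 to 12.46, 16.46 and 13.34 FPKM (1.18, SE 0.14, adjusted p = 0.000887). *Kit*, the stem cell factor receptor used in all 3 gates, is named after its values were seen, because it was lower in MPPs (-0.94, adjusted p = 0.0434, and 0.0512 with the replicate block) and higher in CLPs (0.60, adjusted p = 0.0124). In CD115- CDPs none of 18 passed. With the replicate block 1 did, *Hmga2*, in a fit for which the share of all genes was not computed.

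Among the 6 partners of ERG in the group of stem cell factors known as the heptad, *Tal1* was lower in MPPs, at 16.25, 16.20 and 16.95 FPKM in WT and 6.18, 4.51 and 9.06 in KO-labelled libraries (log2 fold change -1.25, SE 0.22, adjusted p = 0.0350). The other 5 did not pass there, in a fit where 3.52% of all tested genes were lower. Without KO 3, 3 of the 6 were lower, against the same 38.6%. In CLPs 1 of 6 was higher, *Lmo2* (0.38, limma adjusted p = 0.0355), named after its values were seen, against 5.41% of all tested genes. With the replicate block 2 were higher, against 8.44%. MPPs had a median over the 6 of -0.47, CD115- CDPs of 0.12 and CLPs of 0.35.

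Of the other HOXA cluster genes 5 were tested in each population and none passed, and none of the 3, 2 and 2 tested HOXB genes passed in MPPs, CD115- CDPs and CLPs. Without the MPP library KO 3, 1 gene of each cluster was lower, and 38.6% of all tested genes were. Among TALE partners of HOX proteins none of 6 passed in MPPs or CD115- CDPs, and 5 of 6 were lower in MPPs without KO 3, again beside 38.6% of all genes. In CLPs 2 of 6 were lower, against 8.92% of all tested genes, *Meis3* (-0.68, adjusted p = 0.0209) and *Pknox1* (-0.50, adjusted p = 0.0102), both named after their values were seen, while *Meis1* in CLPs was 1.18 times its WT level. Of the paralogues of members none passed in MPPs or CD115- CDPs (2 lower and 1 higher in MPPs without KO 3, beside 38.6% and 15.4% of all genes). In CLPs 1 of 6 was higher, against 5.41% of all tested genes. It was *Dbp*, a paralogue of *Hlf* (0.56, limma adjusted p = 0.0105), also named after its values were seen.

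**Figure D4:**
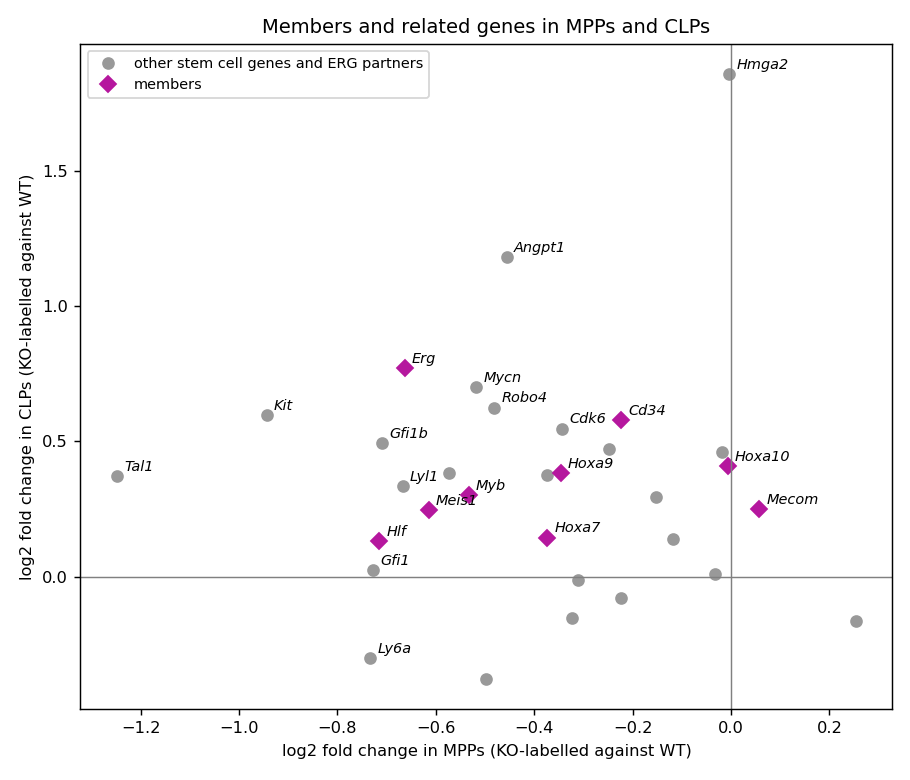
Log2 fold change (KO-labelled against WT) in MPPs on the horizontal axis and in CLPs on the vertical axis for 9 members (diamonds) and 23 other stem cell genes and ERG partners tested in both (circles). The upper left field, lower in MPPs and higher in CLPs, holds 8 of 9 members, including *Hoxa10* at -0.01, and 17 of 23 other genes, among them *Kit*, *Tal1* and *Angpt1*, against 29.7% of the 11871 genes tested in both.

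As a description of likeness, the 2 genes whose log2(FPKM + 1) correlated best with each member over the 18 libraries were found among 11667 genes. For *Hlf* these were *Fam171a1* (Pearson r = 0.987) and *Ndrg2* (0.981), and for *Mecom* they were *Ndrg2* (0.972) and *Hlf* itself (0.967). *Cd34* was nearest to *Ica1* (0.978) and *Micall2* (0.976), *Erg* to *Kif3a* (0.965) and *Pglyrp2* (0.958), and *Meis1* to *Grik5* (0.967) and *Hnf4a* (0.959). *Myb* was nearest to *Slc14a1* (0.964) and *Hp1bp3* (0.963). The HOXA members paired with *Acad10* (0.971) and *Wbscr27* (0.960) for *Hoxa9*, *Wdr24* (0.943) and *Diexf* (0.938) for *Hoxa7*, and *Adgrg1* (0.965) and *Pip5k1b* (0.965) for *Hoxa10*. The 18 libraries share 3 populations, so much of each r is the difference in level between them. After each population was centred, r was 0.524 for *Mecom* with *Ndrg2* and 0.938 for *Erg* with *Pglyrp2*. Centring leaves differences between genotypes and between single libraries in r. Between members, the centred r was 0.900 for *Hoxa7* with *Myb* and 0.866 for *Erg* with *Myb*, and 0.081 for *Mecom* with *Myb*.

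The 3 HOXA members lie side by side on chromosome 6 (GRCm38.p6), *Hoxa7* at 52215623 to 52218573, *Hoxa9* at 52223097 to 52227370 and *Hoxa10* at 52231197 to 52240854, all on the minus strand. *Meis1* and *Hlf* are both on chromosome 11, from 18880428 to 19019651 and from 90336535 to 90390917, on the minus strand. *Erg* spans chromosome 16 from 95359169 to 95586600 (minus strand) and *Cd34* chromosome 1 from 194938821 to 194961292 (plus strand). The library kit did not keep strand, and 20.38% of the exonic bases of *Hoxa7* are shared with the antisense gene *Hoxaas3*, 8.51% of those of *Meis1* with *Gm16140* and 6.26% of those of *Myb* with *Gm26577*. On the same strand, 9.77% of the exonic bases of *Meis1* are shared with *Gm37818*. Reads from such partners cannot be told apart from those of the members.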

How the data were processed

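Poly-A RNA from sorted progenitors was sequenced as single-end reads of 50 bases. The authors filtered reads with SOAPnuke, and the submitters' processing notes name HISAT2 2.0.4, Bowtie2 2.2.5, RSEM 1.2.12 and mm10. The deposited FPKM have 2 decimals, set by the authors, and sum to between 448367 and 588035 per library. Read counts were not used here, so depth was estimated from FPKM multiplied by transcript length, for 1107 to 1236 genes a library, within a limited range of steps. A whole multiple of the depth found was not searched, so precision at low values is uncertain.

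Each population was fitted separately on log2(FPKM + 1), for genes averaging 0.5 FPKM or more over its 6 libraries, with limma 3.58.1 (trend) in R 4.3.3, with Benjamini-Hochberg adjustment over all tested genes. Fold changes on this scale understate those of low genes. Calls used an adjusted p of at most 0.05, with or without a log2 fold change of at least 1. The interaction of population and genotype was tested over 18 libraries. The fits were tested on simulated data whose noise was independent between libraries. Outlying libraries and libraries linked by replicate number were not simulated.

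WT and KO-labelled libraries share replicate numbers in their titles. Deviations of same-numbered libraries correlated at 0.44, 0.67 and 0.79 in CD115- CDPs and 0.40, 0.33 and 0.13 in CLPs, where the check for pairing was taken as met. In MPPs they correlated at 0.04, 0.48 and 0.47, and the check was not met. In CLPs, WT 3 correlated more with KO 2 (0.23) than with KO 3. In CD115- CDPs, KO 1 correlated more with WT 2 (0.66) than with WT 1, so the correlations hardly told replicates 1 and 2 apart. The main fits used no block in any population, and the replicate block was used only in alternative fits.

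The members and lists were chosen with earlier results of these data known. The text names every member, *Trim33*, list genes called at a fold of at least 2 (at most 4 a list) and the 2 genes most correlated with each member. *Kit*, *Lmo2*, *Dbp*, *Meis3* and *Pknox1* fall outside this rule and were named after their values were seen, and 1 list gene is not reported here. Promoter windows and positions come from RefSeq (GRCm38.p6), exon overlaps from GENCODE vM21, and summaries from pandas 2.3.3, numpy 2.4.6 and matplotlib 3.10.9.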

Additional observations from a re-analysis of the deposited data

Results flagged for a closer look

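The genotype difference of 2 members differed between the 3 populations by the interaction test when the replicate number was a block. The same held for 8.82% of all tested genes. *Erg* had adjusted p = 0.0243 in that fit, with a log2 fold change of 0.77 in CLPs, 0.30 in CD115- CDPs and -0.66 in MPPs. *Cd34* had adjusted p = 0.0299, with log2 fold changes of 0.58, 0.37 and -0.22 in the same order. Neither passed without the block (adjusted p = 0.0889 and 0.280), and the replicate numbers did not meet the pairing check in MPPs. Over the fits that left out 1 library, without the block, the adjusted p ranged from 0.00685 to 0.236 for *Erg* and from 0.0315 to 0.541 for *Cd34*.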

How the results depend on the processing

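No member was called at a fold of at least 2 in any population under any setting that kept that limit. With no minimum fold change, 2 members passed as lower in MPPs, beside 3.52% of all tested genes. In CLPs 2 passed as higher, beside 5.41%. With the replicate block, 1 member passed in MPPs (*Meis1*, limma adjusted p = 0.0488), where the share of all genes was not computed. The interaction test with the block passed 2 members, beside 8.82% of genes. That test passed 1 member with quantile normalization and 0 to 3 when 1 library was left out. Of these fits the share was computed only without the MPP library KO 3 (5.89%). The block took *Hlf* out in MPPs and brought *Hoxa9* in in CLPs, and changed no other call of a member within a population. The MPP count at an adjusted p of at most 0.05 was 1 with a pseudocount of 0.1, with no expression filter or with a filter at 5 FPKM. Shares of all genes were not computed for these settings.

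Scaling by median ratios moved the median log2 fold change over all MPP genes from -0.11 to -0.01, and rescaling to TPM moved that of CD115- CDPs from -0.07 to -0.19; *Meis1* and *Hlf* passed in MPPs under both scalings and quantile normalization. Signs turned for members near 0. *Hoxa10* in MPPs was 0.10 with median ratios and 0.21 with quantile normalization. In CD115- CDPs *Meis1* was 0.0024 with a pseudocount of 0.1, 0.039 with median ratios and 0.14 with quantile normalization, *Procr* was 0.057, 0.012 and 0.15 in the same order, and *Hoxa7* was -0.072 as TPM. With 1 library left out, the log2 fold change ranged from -0.12 to 0.21 for *Mecom* and -0.081 to 0.064 for *Hoxa10* in MPPs, from -0.23 to 0.20 for *Meis1*, -0.16 to 0.18 for *Hoxa7*, -0.29 to 0.25 for *Procr* and -0.36 to 0.081 for *Myb* in CD115- CDPs, and from -0.056 to 0.38 for *Hlf* in CLPs. The cause was not tested. The lists in MPPs without library KO 3 were read as an alternative chosen after seeing the data.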
